A study of Mus musculus with 24 samples.

Results

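The genes described are 10 members of the pathway that loads peptides onto MHC class I molecules, chosen by symbol from a table of 16996 genes: B2m, H2-K1, H2-D1, Tap1, Tap2, Tapbp, Psmb8, Psmb9, Psmb10 and Nlrc5. All 10 were found, each in 1 row, and no filter was applied to them. Values came from RNA-sequencing of CD45+ cells, enriched with magnetic beads from EMT6-hHER2 tumors of 24 mice, with 1 library per mouse. EMT6 is a murine breast cancer cell line, and EMT6-hHER2 is a single-cell clone of it that expresses human HER2. The tumors grew in the mammary fat pad of immunocompetent wild-type (WT) female Balb/c mice, which were 8 to 10 weeks old at injection and are given as 10 to 12 weeks old in the sample labels. At a tumor volume of 80 mm3, 6 mice received no treatment, 6 received trastuzumab at 20 mg/kg, 6 received T-DM1 at 15 mg/kg and 6 received T-PNU at 1 mg/kg, each as 1 intravenous dose, and the cells were taken on day 10. Trastuzumab is an antibody to human HER2, T-DM1 is trastuzumab joined to the microtubule inhibitor DM1, and T-PNU is trastuzumab joined to PNU, an anthracycline derivative. All treated mice therefore received a trastuzumab antibody, and the 3 agents were compared at different doses. By the study's account, T-PNU tumors had shrunk by harvest, while trastuzumab and T-DM1 did not prevent tumor growth in its efficacy experiments. Treatment and tumor size at harvest therefore cannot be told apart. The study marks some T-PNU samples as low-responding, and these were not set apart here.

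MHC class I molecules show fragments of a cell's own proteins to CD8 T cells. The proteasome cuts proteins in the cytosol, the TAP transporter carries the fragments into the endoplasmic reticulum, tapasin and its partners load them onto a heavy chain paired with beta-2 microglobulin, and the loaded complex travels to the surface. Interferon gamma, released by activated T and NK cells, is the best known inducer of these genes, and leukocytes express the pathway at high levels without it.

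Before the results, 3 features of the libraries need stating. The study's heatmaps show 20 of the 24 samples. They leave out B1 and C1 of the untreated group as well as E2 and B3 of the trastuzumab group. Results are therefore given with all 24 samples and, where it matters, with the 20 shown. The study's methods compared samples by expression to find and remove outliers, and whether these samples were left out for that reason is not stated. If so, the choice itself can narrow the spread within groups and separate them more cleanly. Adjusted p-values and group separation from the 20 samples are therefore descriptions, not independent evidence. The leukocyte gene Ptprc, which encodes CD45, had a mean normalized log2 value of 14.7, but Krt8, a keratin of epithelial tumor cells, stood at 13.0 and Col1a2, a collagen chain of fibroblasts, at 15.2, so transcripts that mark non-leukocytes were measured at high levels. The study's methods describe the enriched cells as nearly pure CD45+ cells by flow cytometry. The column headings number the untreated mice in a series of their own, so that any difference between series and treatment cannot be told apart. In bulk RNA, fewer cells of a type and less RNA per cell cannot be told apart either.

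H2-K1 and H2-D1 were the pair of members whose levels followed each other most closely over the 24 samples, with a Pearson r of 0.97, and the promoters of these 2 heavy chain genes and of their light chain B2m are shown because they share the elements known to control class I genes. The sequences are from RefSeq on build GRCm38.p6 and run from 200 bases before to 30 bases after the annotated start site. They are H2-K1 at chr17:34000318-34000547 on the minus strand, H2-D1 at chr17:35262894-35263123 on the plus strand and B2m at chr2:122147487-122147716 on the plus strand. All are sequences of the reference genome, whose MHC haplotype is not that of Balb/c mice. The promoters of the mice studied were not sequenced and can differ. Capitals mark a kappaB site, bound by NF-kappaB and searched as the 11 letters that begin with GGGG and end with CCCC in the heavy chain promoters, TGACG (the core of the X2 box, bound by CREB family factors), CCAAT or its reverse complement ATTGG (the Y box, bound by NF-Y) and, in B2m, an interferon-stimulated response element, bound by IRF factors and searched as GAAA, any 2 bases and GAAA. Each was searched on both strands, and no marked matches overlap.
H2-K1: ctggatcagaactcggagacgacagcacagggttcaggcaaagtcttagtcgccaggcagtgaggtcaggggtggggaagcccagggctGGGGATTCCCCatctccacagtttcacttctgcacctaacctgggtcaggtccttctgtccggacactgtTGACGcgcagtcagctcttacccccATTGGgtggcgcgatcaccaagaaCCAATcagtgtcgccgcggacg
H2-D1: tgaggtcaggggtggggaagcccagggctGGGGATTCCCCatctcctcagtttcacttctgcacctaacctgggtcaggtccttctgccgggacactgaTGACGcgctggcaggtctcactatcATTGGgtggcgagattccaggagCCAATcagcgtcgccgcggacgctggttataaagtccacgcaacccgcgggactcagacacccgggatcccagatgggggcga
B2m: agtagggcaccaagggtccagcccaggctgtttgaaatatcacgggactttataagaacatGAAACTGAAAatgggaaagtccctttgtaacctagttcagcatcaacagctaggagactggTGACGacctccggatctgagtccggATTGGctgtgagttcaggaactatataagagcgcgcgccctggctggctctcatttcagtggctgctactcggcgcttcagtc
The longest run shared by the H2-K1 and H2-D1 stretches was 46 bases and held the kappaB site. In both, the kappaB site was followed in the 5′ to 3′ direction by TGACG and then by ATTGG and CCAAT. In the B2m stretch the search found the interferon-stimulated response element, followed by TGACG and ATTGG, and not the 11 kappaB letters. Only the letters named above were searched, so related forms of either element are not marked in any stretch.

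RefSeq promoter windows, from 250 bases before to 50 after the start site, were found for 8 of the 10 members, not for Tap2 and Nlrc5. The kappaB letters were in the windows of H2-K1 and H2-D1 and in 6 of 27025 promoters in all (0.0222%). TGACG was in the windows of 5 members (B2m, H2-K1, H2-D1, Tap1 and Psmb9) and in 21.0% of all promoters. CCAAT was in the windows of the same 5 members and of Tapbp, and in 37.9% of all promoters. The letters searched for the interferon-stimulated response element were in the B2m window and in 3.49% of all promoters. A match describes letters and does not show that a factor bound there. The lack of a match does not show that an element is absent, because related letters were not searched.

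On GRCm38, 7 of the 10 members lie on chromosome 17, in or near the mouse MHC. Psmb9, Tap1, Psmb8 and Tap2 stand side by side within 34335 bases, from the end of Psmb9 at 34181987 to the end of Tap2 at 34216321. Tap1 (34187553 to 34197225, plus strand) and Psmb9 (34181987 to 34187764, minus strand) overlap at their starts, and their promoter windows share 275 bases. Psmb10 and Nlrc5 lie on chromosome 8 and B2m on chromosome 2. Reads were counted by strand, which keeps Tap1 and Psmb9 apart, while Tapbp overlaps Zbtb22 on the same strand. Balb/c mice carry the H-2d haplotype and the reference genome the H-2b haplotype, and the class I heavy chains have near-identical relatives. Levels of H2-K1 and H2-D1 are therefore uncertain in a way that B2m, the TAP genes and the proteasome genes are not. The same holds for the other class I heavy chain genes H2-Q10, H2-T23 and H2-T24, named below.

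Divided by exon length, B2m had the highest mean level of the members, at 17.4 on the log2 scale per kilobase of exon. H2-D1 followed at 15.4 and H2-K1 at 14.3. The processing genes lay lower, with Psmb8 at 12.0, Tapbp at 11.9, Psmb10 at 11.5, Tap1 at 11.0 and Psmb9 and Tap2 at 10.6 each. Without the division their means also lay lower, from 12.2 for Psmb10 to 13.8 for Tapbp, against 15.8 for H2-K1. Nlrc5, the transactivator of class I genes, was lowest per kilobase, at 9.70, but not without the division, at 12.8. Exon length counts every base in any annotated exon of a gene, which for Psmb8 came to 3381 bases. Long annotated forms therefore lower a gene's value whether or not they are expressed, and the order per kilobase is approximate. Across single samples the normalized values moved little. The fold between the lowest and the highest of 24 samples ran from 1.39 for B2m to 2.34 for Nlrc5, and was 2.31 for Tapbp, 2.14 for Tap2, 2.10 for Tap1 and 2.09 for Psmb10. The share of a member's variance that lay between the 4 groups was highest for Tapbp (56.5%) and Tap2 (35.7%) and lowest for Psmb9 (7.84%).

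**Figure D1:**
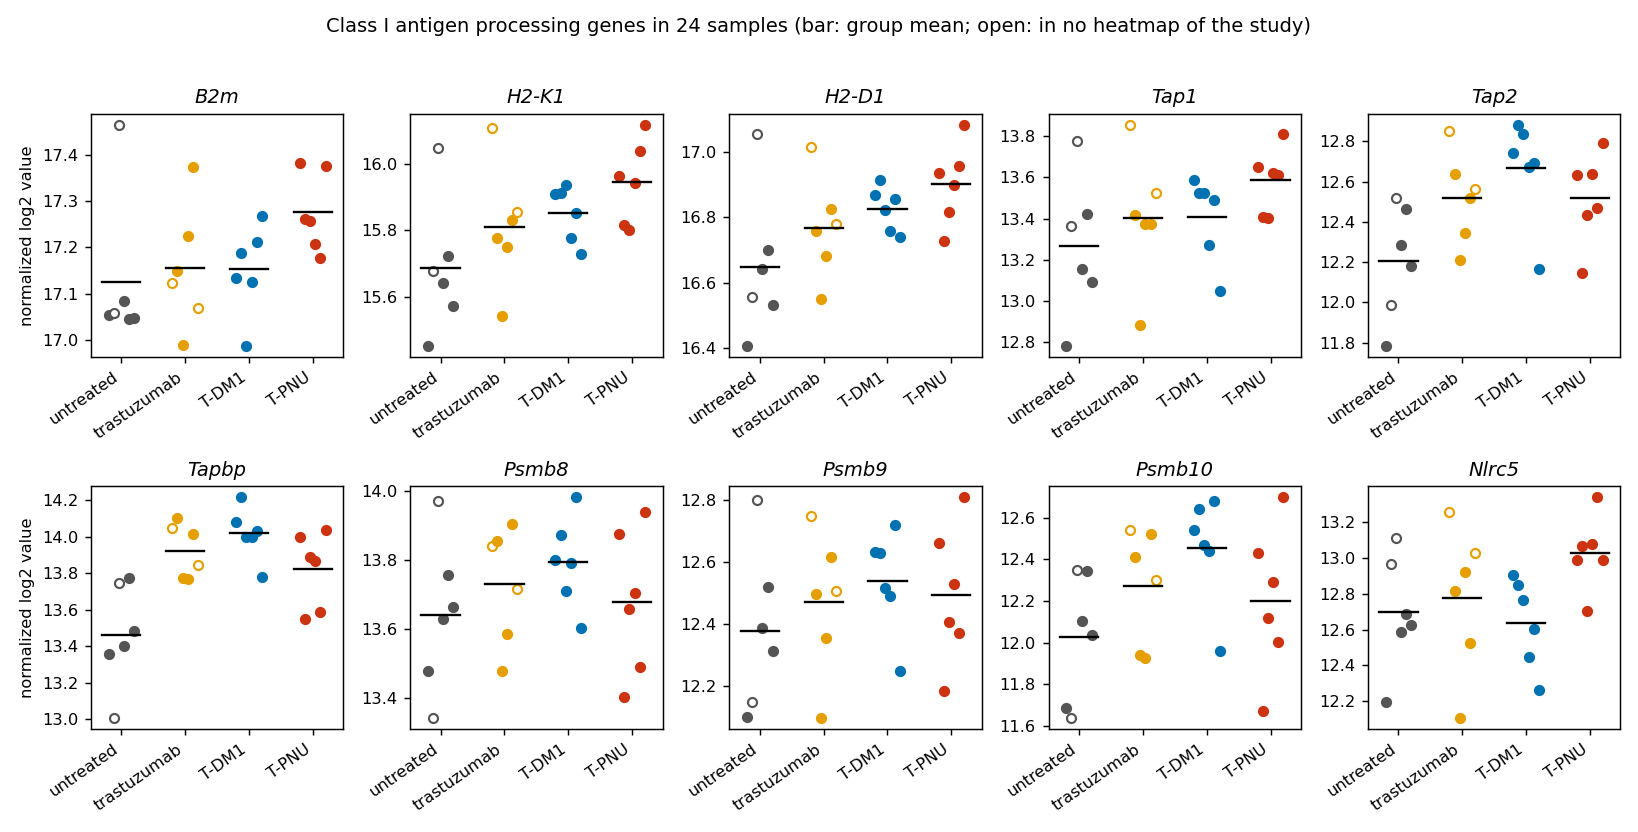
Normalized log2 values of the 10 members in 24 samples, 1 panel per gene with its own vertical axis. Points are single mice, bars are group means, and open points are the 4 samples that the study's heatmaps do not show. Tapbp values of all 6 T-DM1 samples lie above those of all 6 untreated samples, and untreated C1 lies at or near the top of its group in every panel.

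In T-PNU against untreated tumors, all 10 members had a higher mean, by 0.04 to 0.36 in log2, as had 51.5% of all genes. None passed an adjusted p of 0.05 by limma with Benjamini-Hochberg adjustment over all genes, beside 0.188% of all genes, while 5 had an unadjusted p under 0.05, beside 24.8% of all genes. The members' median log2 fold change was 0.26, beside 0.01 for all genes. Without the 4 samples absent from the heatmaps, 5 members rose (H2-K1, H2-D1, Tap1, Tapbp and Nlrc5), beside 31.1% of all genes called in either direction, 15.3% called higher and 15.7% called lower. Leaving out C1 alone gave 4 of these calls (H2-K1, H2-D1, Tap1 and Tapbp). The share of all genes called in that fit was not computed.

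H2-K1, a classical class I heavy chain, had normalized log2 values with a lowest, median and highest of 15.45, 15.66 and 16.05 in untreated samples and of 15.80, 15.95 and 16.11 in T-PNU samples. For H2-D1, the other classical heavy chain measured, they were 16.41, 16.60 and 17.06 against 16.73, 16.92 and 17.08. The highest untreated value was that of C1 for both genes, and without B1 and C1 every T-PNU value lay above every untreated one. The log2 fold change of H2-K1 was 0.26 (SE 0.10, limma adjusted p = 0.113) with 24 samples and 0.35 (SE 0.08, adjusted p = 0.00768) with 20. For H2-D1 it was 0.25 (SE 0.10, limma adjusted p = 0.134) and 0.33 (SE 0.09, adjusted p = 0.0116). B2m, the invariant light chain, had a smaller difference. Its values were 17.05, 17.06 and 17.46 in untreated samples and 17.18, 17.26 and 17.38 in T-PNU samples, with a log2 fold change of 0.15 (limma adjusted p = 0.292). Of the 6 untreated samples, 5 lay between 17.05 and 17.09, below all T-PNU samples, and C1 lay above them all. With 20 samples, 4 members had T-PNU values all above the untreated ones (B2m, H2-K1, H2-D1 and Nlrc5), as had 8.03% of all genes, while with 24 samples none did, beside 0.341% of all genes.

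Tap1 and Tap2 form the peptide transporter. Tap1 values were 12.78, 13.26 and 13.78 in untreated and 13.40, 13.62 and 13.81 in T-PNU samples. Its log2 fold change was 0.32 (SE 0.15, limma adjusted p = 0.180) with 24 samples and 0.47 (SE 0.13, adjusted p = 0.0142) with 20. Tap2 values were 11.78, 12.23 and 12.52 in untreated and 12.15, 12.55 and 12.79 in T-PNU samples, with overlap, and its log2 fold changes of 0.32 and 0.34 did not pass (limma adjusted p = 0.163 and 0.0791). Tapbp encodes tapasin, which bridges TAP and the empty heavy chain. Its values were 13.01, 13.44 and 13.77 in untreated and 13.55, 13.88 and 14.04 in T-PNU samples, and its log2 fold change was 0.36 (SE 0.12, limma adjusted p = 0.0845), or 0.32 (adjusted p = 0.0376) with 20 samples.

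The immunoproteasome subunits Psmb8, Psmb9 and Psmb10 take the place of constitutive catalytic subunits when interferon acts on a cell. In T-PNU against untreated samples they had log2 fold changes of 0.04, 0.12 and 0.18, with limma adjusted p from 0.497 to 0.833. Their values overlapped widely, with Psmb8 at 13.34, 13.65 and 13.97 in untreated and 13.40, 13.68 and 13.94 in T-PNU samples. The 95% interval of the Psmb8 difference ran from -0.18 to 0.26. With 20 samples none of the 3 passed either (limma adjusted p from 0.303 to 0.764).

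Nlrc5 had a lowest, median and highest of 12.20, 12.66 and 13.11 in untreated samples and 12.70, 13.03 and 13.33 in T-PNU samples. Its log2 fold change was 0.33 (SE 0.17, limma adjusted p = 0.217) with 24 samples and 0.50 (SE 0.15, adjusted p = 0.0223) with 20. The untreated samples B1 and C1, at 12.96 and 13.11, were the highest of their group, and the T-PNU sample A2, at 12.70, was the lowest of its own.

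**Figure D2:**
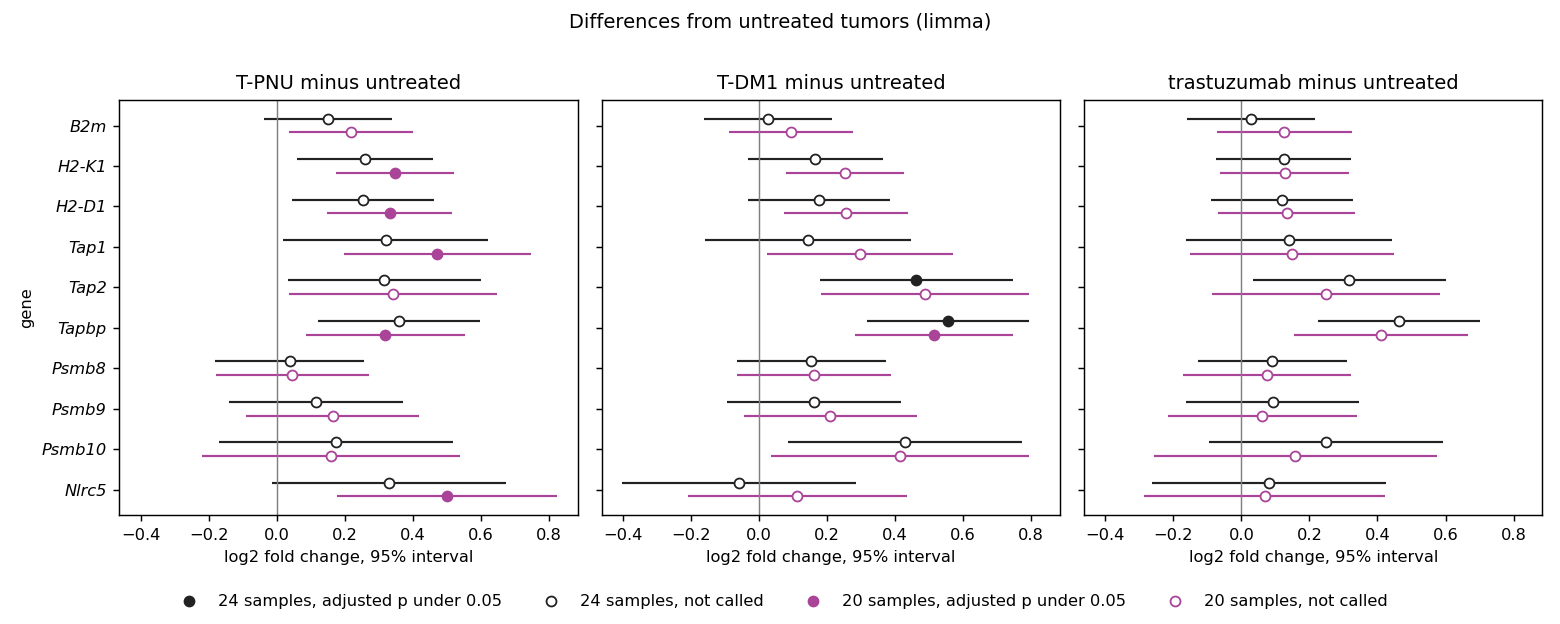
Log2 fold changes of the 10 members from untreated tumors with 95% intervals from limma, for T-PNU, T-DM1 and trastuzumab. Black is the fit of 24 samples and purple that of the 20 samples in the study's heatmaps, and filled points passed an adjusted p of 0.05. In T-PNU the filled points are those of 5 genes with 20 samples, and in T-DM1 those of Tap2 and Tapbp with 24 samples and of Tapbp with 20.

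T-DM1 was compared with the same untreated samples, so the untreated values enter both comparisons. Tapbp and Tap2 rose in T-DM1, 2 of 10 members, beside 6.27% of all genes called in either direction and 4.11% called higher, and no member fell, beside 2.15% called lower. The members' median log2 fold change was 0.16, beside -0.02 for all genes. Tapbp values were 13.78, 14.02 and 14.22 in T-DM1 samples, all above the untreated ones, whose highest was 13.77. Of all genes, 2.05% had every T-DM1 value above every untreated value. The log2 fold change of Tapbp was 0.56 (SE 0.12, limma adjusted p = 0.00884), or 0.51 (adjusted p = 0.0260) with 20 samples, and the call held when each of the 24 libraries was left out in turn.

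Tap2 values were 12.17, 12.72 and 12.88 in T-DM1 samples. Of the 6 T-DM1 samples, H3 lay inside the untreated range, at 12.17, and the other 5 lay above it. The log2 fold change was 0.46 (SE 0.14, limma adjusted p = 0.0462), and 15 of the 24 fits that each left out 1 library no longer called it, nor did the fit with 20 samples (0.49, adjusted p = 0.0860), in which 2.01% of all genes were called. Tap1, its partner in the transporter, had values of 13.05, 13.51 and 13.59 in T-DM1 samples, within the untreated range, and a log2 fold change of 0.14 (limma adjusted p = 0.595).

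The difference between Tap1 and Tap2 within a sample, a measure chosen after the values were seen and given with no test, had a median of 0.98 in untreated, 0.91 in trastuzumab, 0.74 in T-DM1 and 1.02 in T-PNU samples on the log2 scale. The highest T-DM1 difference, 0.88 in H3, lay below the lowest T-PNU difference, 0.97 in A2. The samples of untreated tumors ran from 0.87 to 1.38 and overlapped both.

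The heavy chain genes had log2 fold changes of 0.17 (H2-K1, limma adjusted p = 0.312) and 0.18 (H2-D1, adjusted p = 0.300) in T-DM1. With 20 samples their T-DM1 values, like those of Tapbp, all lay above the untreated ones, as did those of 2.81% of all genes, but neither heavy chain passed (limma adjusted p = 0.112 and 0.129). B2m differed by 0.03 (limma adjusted p = 0.900). Of the immunoproteasome subunits, Psmb10 had the largest value, 0.43 (SE 0.17, limma adjusted p = 0.117), with T-DM1 values of 11.96, 12.51 and 12.68 against untreated values of 11.64, 12.07 and 12.35. T-DM1 sample H3 was the lowest of its group, and without it the log2 fold change was 0.53 and passed. Nlrc5 differed by -0.06 (SE 0.17, limma adjusted p = 0.878) with 24 samples and by 0.11 (adjusted p = 0.732) with 20, so that its direction depended on the samples.

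In trastuzumab against untreated samples no member passed by limma, beside 0.259% of all genes, and 2 had an unadjusted p under 0.05, beside 8.77%. All 10 means were higher in trastuzumab, as were those of 45.5% of all genes, with a median log2 fold change of 0.12, beside -0.01 for all genes. The 2 largest were again those of Tapbp, at 0.46 (SE 0.12, limma adjusted p = 0.0856), and Tap2, at 0.32 (SE 0.14, adjusted p = 0.502). Tapbp values were 13.77, 13.93 and 14.10 in trastuzumab samples, against an untreated maximum of 13.77 in E1, which overlapped the lowest of them, and leaving out E1 moved its log2 fold change to 0.52 and past the threshold. The classical heavy chains, Tap1 and Nlrc5 had log2 fold changes between 0.08 and 0.14, and their trastuzumab samples spread from the lowest values, in G2, to the highest, in E2.

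Setting the conjugates side by side, no member passed in T-PNU against T-DM1 by limma, beside 29.8% of all genes, and 1 had an unadjusted p under 0.05, beside 42.9%. Of the members, 5 had the higher mean in T-PNU, as had 54.2% of all genes, and 5 in T-DM1. Nlrc5 had the largest difference, with T-DM1 values of 12.26, 12.68 and 12.90 against T-PNU values of 12.70, 13.03 and 13.33. Its log2 fold change was 0.39 (SE 0.17, limma adjusted p = 0.0787) with 24 samples and passed with 20 (adjusted p = 0.0319), beside 39.9% of all genes, a fit in which these 2 groups are the same mice and the pooled spread differs. The genes higher in T-DM1 included Psmb10 (-0.25, limma adjusted p = 0.242), Tapbp (-0.20, adjusted p = 0.195) and Tap2 (-0.15, adjusted p = 0.421), with 95% intervals that reached from -0.60 to 0.09, from -0.43 to 0.04 and from -0.43 to 0.14.

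T-PNU against trastuzumab gave no call among the members by limma, beside 0.00588% of all genes, with none at an unadjusted p under 0.05, beside 19.5%. With 20 samples Nlrc5 passed (0.43, SE 0.15, adjusted p = 0.0438), beside 28.0% of all genes, against 0.25 (SE 0.17, adjusted p = 0.378) with 24. T-DM1 against trastuzumab gave no call among the members with 24 or with 20 samples by limma, beside 0.647% and 0.812% of all genes, with none at an unadjusted p under 0.05 with 24, beside 15.3%. The largest difference was that of Psmb10, 0.18 (limma adjusted p = 0.649), and B2m and Tap1 differed by under 0.01.

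**Figure D3:**
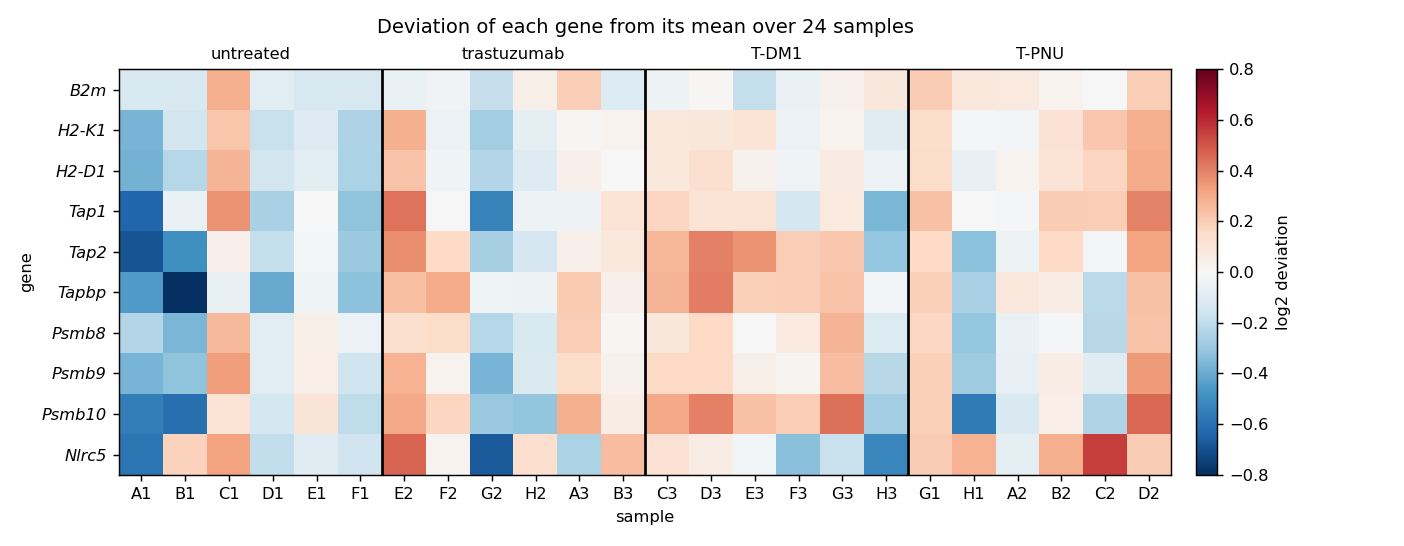
Deviation of each member from its mean over 24 samples on the log2 scale, with samples in columns by group and genes in rows, red for above and blue for below the mean. Untreated A1, D1 and F1 and trastuzumab G2 have all 10 members below their means, untreated C1, trastuzumab E2, T-DM1 samples C3 and G3 and T-PNU sample B2 have 9 of 10 above, and T-PNU samples G1 and D2 and T-DM1 sample D3 have all 10 above.

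The members varied largely together from mouse to mouse. The mean deviation of the 10 members was lowest in A1 of the untreated group, at -0.44, and highest in D2 of the T-PNU group, at 0.30. Untreated C1 (0.21) and trastuzumab E2 (0.27), which the heatmaps leave out, were the highest of their groups. Trastuzumab G2 (-0.31), T-DM1 sample H3 (-0.19) and T-PNU sample H1 (-0.15) were the lowest of theirs. Between pairs of members, r over the 24 samples ran from 0.09 for Tapbp and Nlrc5 to 0.97 for H2-K1 and H2-D1. Tap1 followed H2-K1 (0.95), and Psmb8 followed Psmb10 (0.93) and Psmb9 (0.93), although Psmb10 lies on another chromosome. Between Nlrc5 and the immunoproteasome genes r was 0.15 for Psmb8, 0.20 for Psmb10 and 0.46 for Psmb9. These correlations share libraries and normalization and are given as descriptions.

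Over all genes and 24 samples, those most like the mean of the members were H2-T23 (r 0.96), a nonclassical class I heavy chain, and Gm11127, Ogfr, Parp10 and Blvrb (0.92 to 0.93). Apart from other members, the gene most like Psmb8 was Psme1 (0.96), which encodes a subunit of the interferon-inducible proteasome activator. B2m was followed most closely by Klrk1 (0.87), the gene of the NK cell receptor NKG2D, Tapbp by Mvp (0.93), Tap2 by Chpf2 (0.92) and Nlrc5 by Slco3a1 (0.93).

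Each immunoproteasome subunit replaces 1 constitutive subunit, so the difference of the 2 log2 values within a sample was compared between groups, 3 pairs in 6 comparisons. These differences are not per length and are read only between samples. Psmb8 minus Psmb5 had a lowest, median and highest of 4.75, 4.85 and 5.02 in T-PNU samples and of 4.31, 4.46 and 4.62 in T-DM1 samples, without overlap. The means differed by 0.39 (two-sided exact permutation test, p = 0.00216, the smallest that 6 against 6 samples can give, adjusted over 18 tests 0.0390). Psmb8 itself differed by -0.12 between these groups and Psmb5 by -0.51 (limma adjusted p = 0.00425). Psmb8 minus Psmb5 was 4.51, 4.66 and 5.12 in untreated and 4.51, 4.69 and 4.90 in trastuzumab samples. Both medians lay between those of the conjugates, and the ranges overlapped those of both. With 20 samples, all T-PNU values also lay above all untreated ones for this pair, by 0.21 on average (exact permutation, adjusted p = 0.0571). Under quantile normalization the difference between the conjugates was 0.30 and no longer passed (exact permutation, adjusted p = 0.0779).

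The other pairs gave no difference that passed. Psmb9 minus Psmb6 had medians of 0.22 in T-PNU, 0.18 in T-DM1, 0.20 in trastuzumab and 0.04 in untreated samples, and the smallest adjusted p of its 6 exact permutation tests was 0.161. With 20 samples, all T-PNU values lay above all untreated ones for this pair too, by 0.24 on average (exact permutation, adjusted p = 0.0571). Psmb10 minus Psmb7 had medians of -0.15 in T-PNU, 0.08 in T-DM1, -0.15 in trastuzumab and -0.57 in untreated samples. Its largest difference was 0.51 between T-DM1 and untreated samples, with 5 of 6 T-DM1 samples above all untreated ones (exact permutation p = 0.0346, adjusted p = 0.140).

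**Figure D4:**
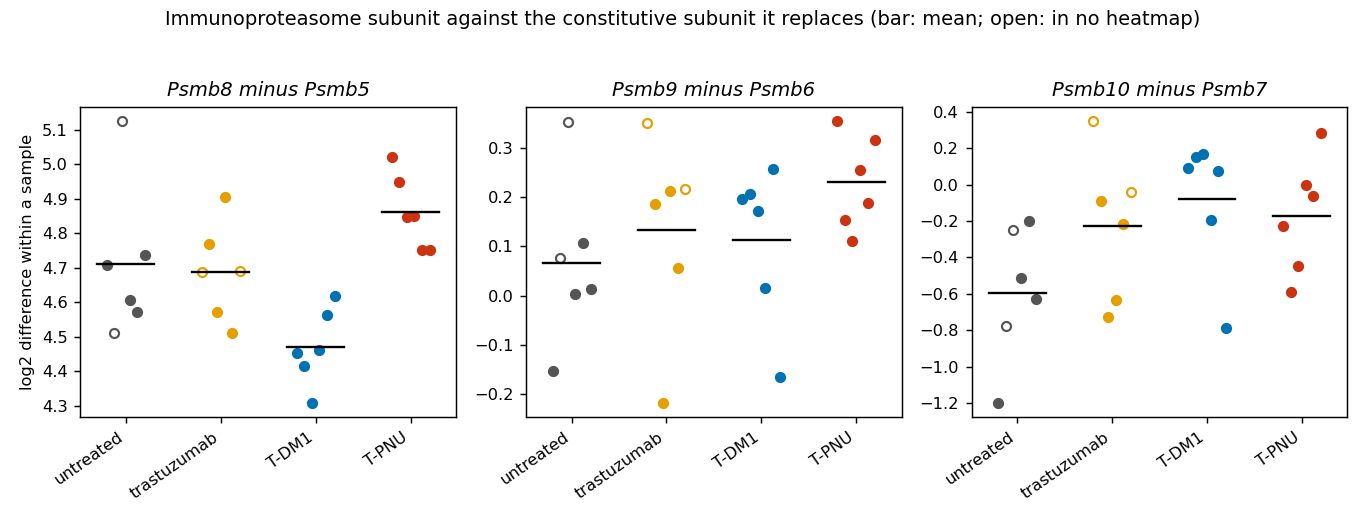
Log2 difference between an immunoproteasome subunit and the constitutive subunit it replaces, by sample and group, with group means as bars and the 4 samples in no heatmap as open points. The T-PNU and T-DM1 samples do not overlap for Psmb8 minus Psmb5, with 4.75 as the lowest T-PNU and 4.62 as the highest T-DM1 value.

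Of the wider class I pathway, 55 of 56 listed genes were measured, H2-Q6 having no row. None passed by limma in T-PNU against untreated samples with 24 samples, beside 0.188% of all genes, while 17 had an unadjusted p under 0.05, beside 24.8% of all genes. The largest positive log2 fold change was that of H2-T24, a nonclassical heavy chain (0.57, limma adjusted p = 0.0963, or 0.81 and past the threshold without C1), and the largest negative one that of Psma5, a core subunit of the proteasome (-0.28, adjusted p = 0.201). With 20 samples 16 rose and 3 fell, beside 15.3% and 15.7% of all genes. The genes that rose included the interferon response factors Irf1 (0.53, limma adjusted p = 0.00919) and Irf2 (0.61, adjusted p = 0.000828) and Ifng itself (1.05, adjusted p = 0.00873). With all 24 samples none of these 3 passed, at 0.28 for Irf1 (limma adjusted p = 0.274), 0.43 for Irf2 (adjusted p = 0.0696) and 0.39 for Ifng (adjusted p = 0.496). The genes that fell were the proteasome subunits Psmb7 (-0.30) and Psma7 (-0.24) and Ezh2 (-0.27), a histone methyltransferase.

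T-DM1 against untreated samples called 4 of the 55 genes by limma, close to the 6.27% of all genes. H2-Q10, a nonclassical heavy chain, rose by 0.74 (SE 0.22, limma adjusted p = 0.0447), Rela, the p65 subunit of NF-kappaB, by 0.43 (SE 0.08, adjusted p = 0.00546) and Psmb5 by 0.39 (SE 0.12, adjusted p = 0.0459), and Ezh2 fell by 0.25 (SE 0.07, adjusted p = 0.0468). Whether the reads counted for H2-Q10 came from that gene or from other heavy chain genes was not tested. Rela values were 11.87, 11.97 and 12.23 in untreated and 12.26, 12.44 and 12.58 in T-DM1 samples, without overlap, beside 2.05% of all genes. With 20 samples Rela was the only one of the 55 to pass (0.39, limma adjusted p = 0.0356). The calls of H2-Q10, Psmb5 and Ezh2 changed in 14, 16 and 17 of the 24 fits that each left out 1 library. Rela also rose in trastuzumab (0.42, SE 0.08, limma adjusted p = 0.0277), the only call of 55 there, which was lost with 20 samples. As background, NF-kappaB is the factor that binds the kappaB letters shown above in H2-K1 and H2-D1, and its binding was not measured.

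T-PNU against T-DM1 called 10 of the 55 genes by limma, 8 higher and 2 lower in T-PNU, beside 12.4% and 17.4% of all genes. Irf1, which activates class I promoters, rose most. Its values were 14.09, 14.40 and 14.61 in T-DM1 and 14.81, 14.99 and 15.13 in T-PNU samples, without overlap. Of all genes, 5.45% had every T-PNU value above every T-DM1 value. The log2 fold change of Irf1 was 0.63 (SE 0.16, limma adjusted p = 0.00810). Cd1d1, which presents lipids (0.59, adjusted p = 0.0435), Irf8, a factor of myeloid and dendritic cells (0.54, adjusted p = 0.0244), and H2-T24 (0.52, adjusted p = 0.0488) also rose in T-PNU by limma, and Irf2, Creb1 and Jak2 were called higher by 0.26 to 0.40. The call of H2-T24 changed in 19 of the 24 fits that each left out 1 library and was lost under quantile normalization (limma adjusted p = 0.0557) and without a trend (0.0507), that of Cd1d1 changed in 9 and that of Irf8 in 4. Psmb5 and Psma7 fell by 0.51 and 0.23. The members themselves gave no call in this comparison, and the difference between them and these regulators was not tested. T-PNU against trastuzumab and T-DM1 against trastuzumab called none of the 55 genes by limma, with 2 and 4 at an unadjusted p under 0.05, beside 19.5% and 15.3% of all genes.

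Ifng, the gene of interferon gamma, had values of 5.81, 5.98 and 8.40 in untreated, 5.86, 6.95 and 7.70 in trastuzumab, 5.78, 6.18 and 6.48 in T-DM1 and 6.27, 7.15 and 7.36 in T-PNU samples. C1 held the highest value of all 24 samples and B1, at 7.40, the second highest of the untreated ones, while the other 4 untreated samples lay between 5.81 and 5.99. Members were compared with Ifng over the 24 samples, 10 correlations with 100000 permutations each, two-sided, and Benjamini-Hochberg adjustment over the 10. Nlrc5 followed Ifng most closely, with a Pearson r of 0.76 and a Spearman rho of 0.80 (permutation adjusted p = 0.0001 for both, the smallest that the permutations can give). For Tap1 r was 0.67 and rho 0.59 (permutation adjusted p = 0.00175 and 0.0134), for H2-K1 0.60 and 0.56 (0.00743 and 0.0158), for B2m 0.57 and 0.51 (0.00865 and 0.0270) and for H2-D1 0.53 and 0.50 (0.0170 and 0.0270). Psmb9 did not pass (r 0.39, rho 0.39, permutation adjusted p = 0.107 and 0.103), nor did Tap2, Psmb8, Psmb10 and Tapbp, with r from -0.0016 to 0.18 and rho from 0.09 to 0.23 (permutation adjusted p from 0.384 to 0.994).

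Without the 2 samples farthest from the median of Ifng, C1 and trastuzumab H2, r was 0.80 for Nlrc5, 0.70 for Tap1, 0.63 for H2-K1 and 0.53 for H2-D1, and was 0.43 for B2m. With each group centred on its own mean, r was 0.76 for Nlrc5, 0.75 for Tap1, 0.74 for H2-K1, 0.67 for H2-D1 and 0.59 for B2m (permutation within groups, adjusted p from 0.0004 to 0.0437). The centred rho passed for Nlrc5 (0.74), Tap1 (0.65) and H2-K1 (0.59), but not for B2m (0.49, permutation adjusted p = 0.0563) and H2-D1 (0.48, adjusted p = 0.0753), and without C1 and H2 the centred r of B2m was 0.29. Over the 18 treated samples r was 0.75 for Nlrc5, 0.61 for Tap1, 0.50 for H2-K1, 0.40 for H2-D1 and 0.39 for B2m. Within single groups of 6, r for Nlrc5 was 0.86 in untreated, 0.91 in trastuzumab, 0.61 in T-DM1 and 0.52 in T-PNU samples, and r for Tapbp was 0.04, 0.18, 0.71 and -0.05. With the 20 samples of the heatmaps all 5 passed again, with r of 0.73 for Nlrc5, 0.67 for B2m, 0.62 for Tap1, 0.57 for H2-K1 and 0.51 for H2-D1 (permutation adjusted p from 0.0021 to 0.0416). After centring of each group in these 20 samples, Nlrc5 (0.70) and Tap1 (0.59) passed (permutation within groups, adjusted p = 0.0404 and 0.0433) and B2m, H2-K1 and H2-D1 did not. By the centred rho, neither Nlrc5 (0.59) nor Tap1 (0.57) passed in these 20 samples (permutation adjusted p = 0.0843 for both). Under quantile normalization the r of B2m, the member with the highest level, was -0.0076, and those of H2-K1 and H2-D1 were 0.42 and 0.30 and no longer passed. The r of Psmb10, which had not passed, turned to -0.032. This normalization gives every sample the same set of values, and why these r changed was not tested.

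**Figure D5:**
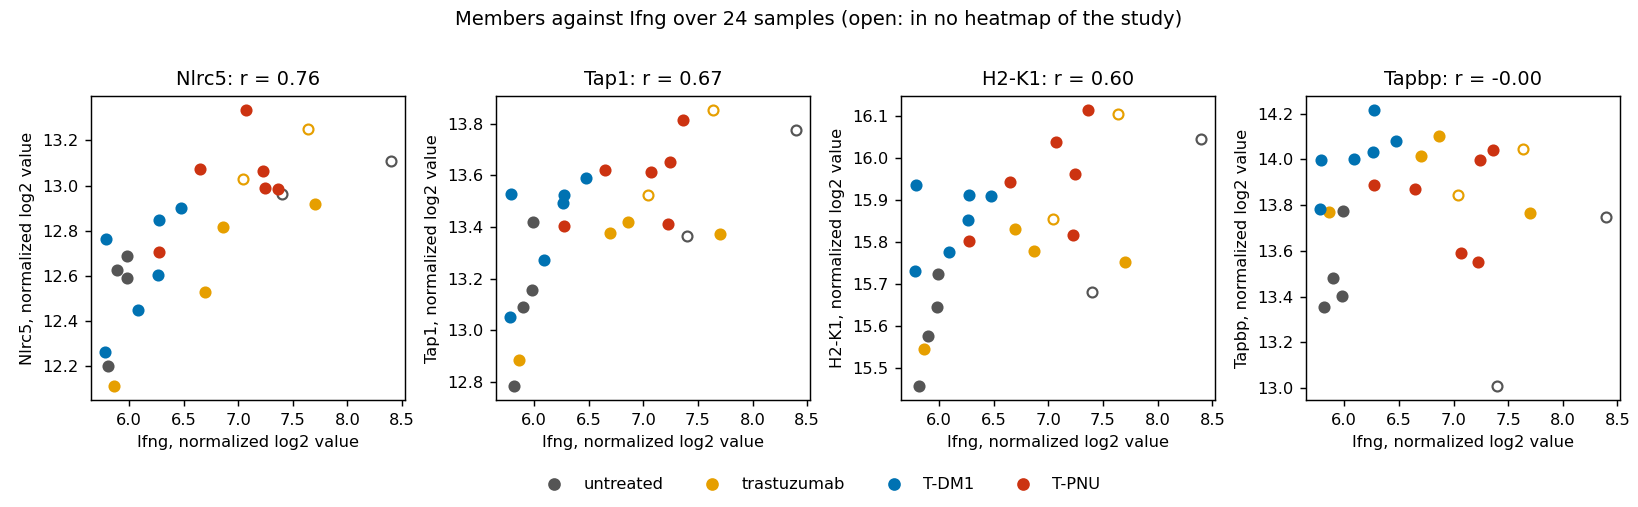
Normalized log2 values of Nlrc5, Tap1, H2-K1 and Tapbp against those of Ifng, 1 point per mouse in the colour of its group, with open points for the 4 samples in no heatmap. Nlrc5 follows Ifng (r 0.76 over 24 samples), while Tapbp does not (r -0.0016), and untreated C1 stands at the far right with Ifng at 8.40.

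Markers of cell types moved with the same comparisons, and their part in the members' values was not tested. Each list is given on the log2 scale as the average, over its genes, of a sample's difference from the mean of the 24 samples. The 8 T cell genes ran from -1.55 to 1.52 in untreated, from -1.32 to 1.25 in trastuzumab, from -1.44 to 0.79 in T-DM1 and from -0.39 to 1.85 in T-PNU samples. The 5 NK cell genes ran from -0.67 to 0.79 in untreated and from 0.09 to 0.66 in T-PNU samples, above the T-DM1 range of -0.50 to 0.12 but for 1 overlap. The 11 genes of tumor cells, fibroblasts and vessels ran from -0.57 to 0.08 in untreated samples and from 0.16 to 0.35 in T-DM1 samples, without overlap. Of these 11 genes, 3 rose in T-DM1 against untreated by limma, beside 4.11% of all genes called higher. The 5 pan-leukocyte genes ran from -0.43 to -0.03 in T-DM1 and from -0.09 to 0.65 in T-PNU samples. T-PNU exceeded T-DM1 for 4 of the 5 by limma, beside 12.4% of all genes called higher. In T-PNU against T-DM1, 4 of the 11 tumor cell, fibroblast and vessel genes were called higher and 6 lower, beside 12.4% and 17.4% of all genes. In the fit of 20 samples, which gave the 5 calls among the members in T-PNU against untreated, all 8 T cell genes (median log2 fold change 1.62), all 5 NK cell genes (0.90) and 4 of the 5 pan-leukocyte genes (0.66) also rose by limma, beside 15.3% of all genes. None of them but 1 pan-leukocyte gene passed with 24 samples, beside 0.188% of all genes. With 20 samples, 3 of 6 dendritic cell, 3 of 6 neutrophil and 2 of 7 macrophage and monocyte genes were also called higher. None of the 5 B cell or 3 red blood cell genes was called. Of the 11 tumor cell, fibroblast and vessel genes, 3 were called higher and 4 lower, beside 15.3% and 15.7% of all genes.

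By single libraries, C1 stood high for macrophage and monocyte genes (0.79), NK cell genes (0.79), dendritic cell genes (0.76) and neutrophil genes (0.74), the highest of its group for each, and B1 stood low for macrophage and monocyte genes (-0.94) and high for T cell (1.52) and B cell (1.93) genes. E2 and B3 had the highest B cell values among trastuzumab samples (2.25 and 1.96). B cell genes ran from -2.38 to 1.93 in untreated and from -1.98 to 2.24 in T-PNU samples. Red blood cell genes, 3 of 5 measured, ran from -1.41 to -0.01 in untreated and from 0.09 to 0.96 in T-DM1 samples.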

How the data were processed

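Per the submitters' processing notes and the methods, the authors aligned stranded mRNA reads to mm10 (the GRCm38 build) with STAR 2.4.2a, counted them per gene by reverse strand with featureCounts (Subread 1.5.0), removed genes with few counts on average and used DESeq2 for their own tests. The deposited table holds log2 values that the authors had normalized for library size. The transformation is not named, and the values look shrunken gene by gene, so log2 fold changes can be smaller than those from counts. The depth behind them is unknown, so counting error has no interval and no count model was fitted.

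Members and gene lists were chosen with earlier results of these data known. All 16996 genes in 24 samples of 4 labelled groups were fitted in limma 3.58.1 under R 4.3.3 (lmFit, contrasts.fit, eBayes with a trend, no covariate), with Benjamini-Hochberg adjustment over all genes, calls at adjusted p under 0.05 and 95% intervals. Subunit differences were compared by exact permutation tests and correlations by 100000 permutations. Alternatives were the 20 samples of the study's heatmaps, quantile normalization, only those genes whose mean exceeded the median gene's, fits of 2 groups, sample weights, no trend, an adjusted p under 0.01 with a fold above 2, and each library left out in turn. All 10 members are named, with the pathway genes called in a comparison, up to 6 by size, or else the largest and smallest. Pathway genes called with the 20 samples, Psma7, Irf2, Creb1 and Jak2 were named after their values were seen, and 1 pathway gene is not reported here. Exon lengths and positions came from GENCODE M21 (16941 of 16996 identifiers found). The steps were checked on simulated data, and figures were drawn with matplotlib 3.10.9.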

Additional observations from a re-analysis of the deposited data

Results flagged for a closer look

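For each member and each subunit pair, the highest and lowest of the 6 samples in a group were tested for a gap to the nearest other sample that was large beside the group's range. Of 52 groups tested, 4 had such a sample, and chance gives about 1 in 20. B2m in untreated C1, at 17.46, stood above the other 5 untreated samples by 0.908 of the range. Psmb8 minus Psmb5 in untreated C1 was 5.12 (gap 0.632 of the range). Tap2 in T-DM1 sample H3 was 12.17 (gap 0.710) and Psmb10 in H3 was 11.96 (gap 0.664), both below the other 5 T-DM1 samples.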

How the results depend on the processing

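Calls among the members turned on which samples entered, and the 20 samples may have been chosen on expression, as stated above. With the 20 samples of the heatmaps, T-PNU against untreated called 5 members and 19 other pathway genes, T-DM1 against untreated 1 and 1, trastuzumab against untreated 0 other pathway genes, T-PNU against T-DM1 1 member, and T-PNU against trastuzumab 1 member and 10 others. Sample weights gave 7 members, all higher, and 22 others, 17 higher and 5 lower, for T-PNU against untreated. For T-DM1 against untreated they gave 5 members, all higher, and 10 others, 8 higher and 2 lower. They gave 1 member for trastuzumab against untreated and 1 other for T-PNU against trastuzumab, both higher. For T-PNU against T-DM1 they gave 16 others, 13 higher and 3 lower. Fits of 2 groups gave 1 member for T-DM1 against untreated, 0 others for trastuzumab against untreated and 1 member for T-PNU against T-DM1. Quantile normalization gave 2 other pathway genes for T-DM1 against untreated. An adjusted p under 0.01 with a fold above 2 called 0 members and 0 others for T-DM1 against untreated, 0 others for trastuzumab against untreated and 0 others for T-PNU against T-DM1, by its stricter construction. The cause of the other changes was not tested. The share of all genes called was computed only for the fits of 24 and of 20 samples. Counts from the other settings therefore cannot be read against such a share.

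Several directions turned under these alternatives. Nlrc5 in T-DM1 against untreated was 0.11 with 20 samples and 0.062 with weights, B2m in T-PNU against T-DM1 was -0.15 under quantile normalization, and Psmb9 there was 0.0040 with weights. Psmb8 minus Psmb5 in trastuzumab against untreated was 0.033 with 20 samples and 0.0051 under quantile normalization, which also gave 0.30 for this pair in T-PNU against T-DM1, no longer past the threshold. Psmb9 minus Psmb6 in T-DM1 against trastuzumab was 0.054 with 20 samples. The r with Ifng was 0.19 for Tapbp with 20 samples. Under quantile normalization it was -0.0076 for B2m, against 0.57 and a pass in the main analysis, and -0.032 for Psmb10. For H2-K1 and H2-D1 it was 0.42 and 0.30 there, no longer past the threshold.

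With each library left out in turn, T-PNU against untreated called 0 to 4 members and 0 to 7 others (most without untreated C1), T-DM1 against untreated 1 to 3 and 1 to 6 (most without T-DM1 H3), trastuzumab against untreated 0 to 1 and 0 to 1, and T-PNU against T-DM1 0 to 1 and 3 to 13. The share of all genes called was not computed for these fits. Values that turned sign then ranged from -0.022 to 0.10 for Psmb8 in T-PNU against untreated, from -0.16 to 0.025 for Nlrc5 in T-DM1 against untreated, from -0.015 to 0.096 for B2m and from -0.019 to 0.21 for Nlrc5 in trastuzumab against untreated, and from -0.11 to 0.016 for Psmb9 in T-PNU against T-DM1. Among the pairs, the sign turned for Psmb8 minus Psmb5 in trastuzumab against untreated (-0.064 to 0.062). It also turned for Psmb9 minus Psmb6 in T-DM1 against trastuzumab (-0.091 to 0.035) and Psmb10 minus Psmb7 in T-PNU against trastuzumab (-0.049 to 0.17). In T-PNU against untreated the sign held for Psmb8 minus Psmb5 (0.11 to 0.23) and Psmb9 minus Psmb6 (0.12 to 0.22). For each of these 2 pairs the call changed in 1 fit. No paired analysis was possible because the labels give no replicate numbers shared between groups.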
